A study of Homo sapiens with 6 samples.

Results

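The 48 genes described here are listed as antiviral effectors of the interferon response, genes that interferon-treated cells switch on. Many of their proteins block virus entry, replication or release, and others, such as USP18 and TRIM14, act on signalling. The genes were taken as a list of symbols that was chosen with earlier results of these data known. Each was represented by its probe set with a single gene symbol and the highest mean signal, and 47 of the 48 were measured among 18417 genes. GBP1 lies on a probe set shared by several symbols and was not analysed here. Expression was measured on 6 Affymetrix Gene ST arrays of 3 near isogenic human cell lines that form a stepwise transformation model, with 2 biological replicates per line. BJ are primary foreskin fibroblasts, the normal stage. BJEL are BJ cells that carry hTERT, telomerase's catalytic subunit, together with the SV40 early region, which encodes the large T and small t antigens, and they were grown with G-418 and hygromycin. BJELM are BJEL cells transduced with a retrovirus for MYC fused to the estrogen receptor, grown with G-418, hygromycin, puromycin and, continuously, 4-hydroxytamoxifen, which activates the fusion. The selection drugs and 4-hydroxytamoxifen cannot be told apart from the introduced genes, and how many independent clones a line represents was not given in the sources used here.

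In the type I interferon pathway, secreted interferon binds a receptor of the subunits IFNAR1 and IFNAR2, and the kinases JAK1 and TYK2 activate transcription factors that join IRF9 on a promoter element called the interferon-stimulated response element (ISRE). Interferon regulatory factors activated by cytosolic RNA or DNA sensors can bind the same element. Interferon gamma acts through a different element, the gamma-activated sequence (GAS). Fibroblasts respond to both routes, and many of the effectors below are at low levels in resting cells.

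Since the members are defined by a shared response, promoter stretches that hold ISRE core letters are shown for some of the members with a match. These members were picked by name. Their log2 differences of BJEL against BJ run from 5.77 for RSAD2 to 0.27 for ISG20. The core searched was GAAANNGAA on either strand, where N is any base, in windows from 250 bases before to 50 bases after each transcript start of RefSeq on GRCh38.p14. Each stretch below is written 5′ to 3′ on the strand of its gene, in lower case with the core matches in capitals, and a match on the opposite strand appears as its reverse complement. RSAD2, which encodes viperin, has annotated starts with a match on each strand (chr2:6865791-6865829 and chr2:6877618-6877656, both plus). In IFI44L (chr1:78620269-78620398, plus) the same letters occur in copies on both sides of a pyrimidine-rich stretch. BST2 (chr19:17405731-17405775, minus) and ISG15 (chr1:1013369-1013419, plus) have overlapping matches, as do HERC5 and RTP4. HERC5 (chr4:88456980-88457069, plus), DDX60 (chr4:168318782-168318855, minus), ISG20 (chr15:88638932-88638970, plus) and RTP4 (chr3:187368328-187368384, plus) complete the set.
RSAD2, first start: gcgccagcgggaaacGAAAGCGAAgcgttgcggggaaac
RSAD2, other start: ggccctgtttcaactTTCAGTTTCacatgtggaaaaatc
IFI44L: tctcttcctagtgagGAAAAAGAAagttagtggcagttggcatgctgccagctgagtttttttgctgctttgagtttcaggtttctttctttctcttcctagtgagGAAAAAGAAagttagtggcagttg
BST2: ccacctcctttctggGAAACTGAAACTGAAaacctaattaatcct
HERC5: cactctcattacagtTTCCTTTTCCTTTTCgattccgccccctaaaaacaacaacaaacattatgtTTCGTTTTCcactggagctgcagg
DDX60: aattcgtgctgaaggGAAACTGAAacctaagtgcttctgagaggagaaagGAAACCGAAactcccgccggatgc
ISG15: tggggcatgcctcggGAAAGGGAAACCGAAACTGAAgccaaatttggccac
ISG20: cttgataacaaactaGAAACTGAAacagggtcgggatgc
RTP4: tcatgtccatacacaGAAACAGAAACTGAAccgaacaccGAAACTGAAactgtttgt

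A promoter window was found for 39 of the 47 measured members, and 28 of the 39 (71.8%) held an ISRE core match, against 9.86% of 27305 genes with a window. The GAS letters TTCNNNGAA were found in 12 of the 39 (30.8%), against 9.38% of all genes, and the E-box CACGTG, a sequence that MYC binds, in 5 (12.8%), against 8.77%. Of the 50 ISRE core matches in member windows, 8 overlapped a GAS match. A match describes letters in a window and not a bound site. Of the 28 members with a match 20 rose in BJEL, with a median log2 difference of 2.19 against BJ, and of the 11 without one 8 rose, with a median of 2.06. The 4 members with 3 or more matches in 1 window were HERC5 and IFI6, which rose in BJEL, and ISG15 and RTP4, which were not called.

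**Figure D1:**
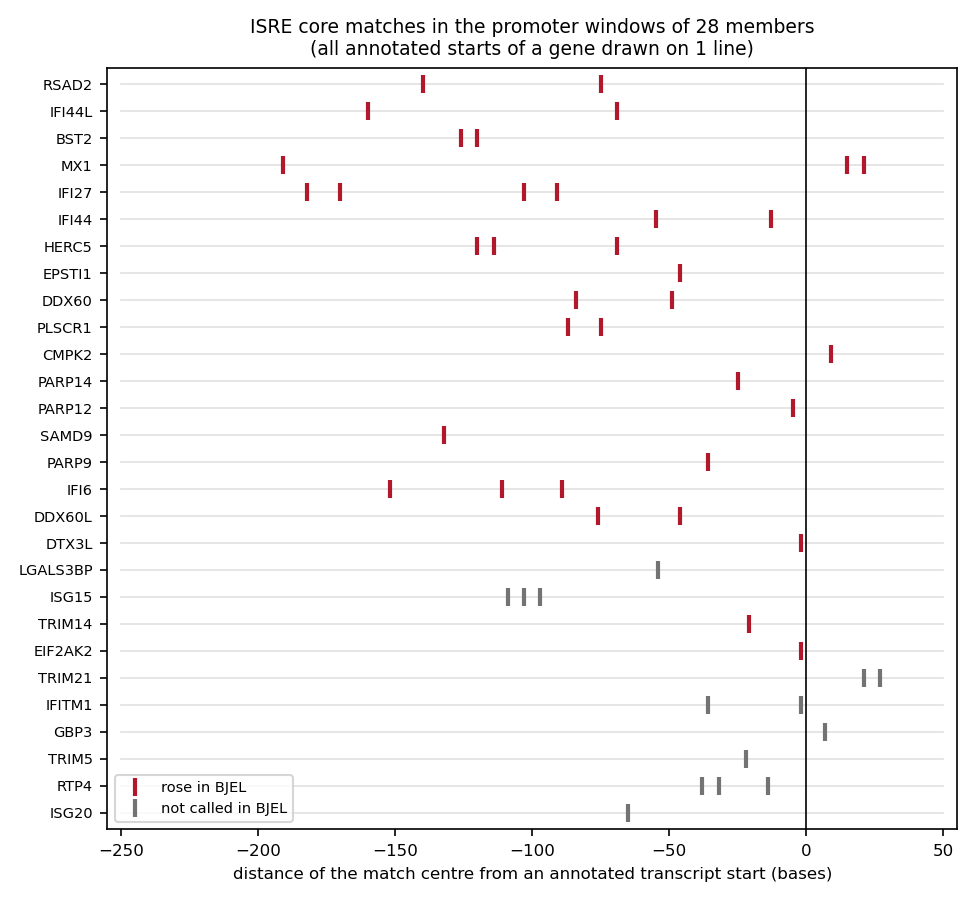
Positions of ISRE core matches in the promoter windows of the 28 members that had one, ordered from the largest log2 difference of BJEL against BJ at the top to the smallest at the bottom. The x axis gives the distance in bases of the centre of a match from an annotated transcript start, red marks members that rose in BJEL (20) and grey those that were not called (8), and both colours occur with matches close to the start.

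Array medians over the 18417 genes lay between 7.18 and 7.27 on the log2 scale, and the lowest 10% of genes on an array lay below 4.73 to 4.77. Pearson correlations across genes were 0.993 to 0.995 within a line and 0.943 to 0.981 between lines, as a description, since genes are not independent replicates. TERT had signals of 7.77 and 7.88 in BJ, 10.71 and 10.97 in BJEL and 10.84 and 10.78 on the arrays labelled BJELM. MYC had signals of 9.47 and 9.61 in BJ, 10.22 and 10.12 in BJEL and 9.57 and 8.90 on the arrays labelled BJELM. The MYC probe set was thus not higher on the arrays labelled as carrying MYC, and directions drawn from them rest on that label. Whether this probe set reads the transcript of the introduced fusion was not tested. Of 8 fibroblast markers VIM stayed between 12.87 and 13.07 on the 6 arrays, while DCN, LUM, COL1A1, COL1A2 and PDGFRB fell in BJEL against BJ, and these with COL3A1 and THY1 (7 of 8) in BJELM against BJ. The median of the 8 was 12.42 and 12.32 in BJ, 10.61 and 10.40 in BJEL and 10.93 and 10.04 on the arrays labelled BJELM. Among 7 leukocyte, 5 endothelial and 5 epithelial markers none was called in BJEL against BJ, and CD68, at 10.27 or above on every array, was the only one called in the other comparisons. The leukocyte median stayed between 5.20 and 5.26. PTPRC, the pan-leukocyte marker, lay between 4.37 and 4.51 and PECAM1 between 4.94 and 5.26, both near the bottom of the signal range. Others were higher, with TYROBP of the leukocyte list between 7.37 and 7.69 and KRT18 of the epithelial list between 10.74 and 12.15. In BJEL against BJ, KRT18 gave -0.97 by limma (adjusted p = 0.04), a change under 2-fold. The part of the lower fibroblast markers in the results was not tested.

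The first comparison asked what the hTERT and SV40 early region step did to these genes. Of the 47 members 30 rose (63.8%) and 0 fell in BJEL against BJ, beside 2.89% of all genes that rose and 2.29% that fell. Since the list was chosen with earlier results known, these shares and those of the later comparisons are a description and not a test of the list. The call needed an adjusted p under 0.05 by limma and a change of at least 2-fold. Changes in either direction made up 5.18% of all genes. In cultures measured as a whole, fewer cells with a transcript and less of it per cell cannot be told apart. The members' median log2 difference was 2.06, beside -0.02 over all genes, with a range from -0.21 to 5.77. RSAD2 (probe set 8040080), IFI44L (probe set 7902541), BST2 (probe set 8035304) and MX1 (probe set 8068713) led the list, with log2 differences of 5.77, 5.60, 5.32 and 5.31. For 44 of the 47 every BJEL array lay above every BJ array, as it did for 29.2% of all genes, and for 0 it lay below, as it did for 32.0%. A further 4 members, ADAR, IFITM1, PML and ZC3HAV1, passed the adjusted p with changes under 2-fold.

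The MYC-ER step was compared next, as the arrays labelled BJELM against BJEL. Here 37 of the 47 members fell (78.7%) and 0 rose, beside 1.76% of all genes that fell and 0.923% that rose (2.68% in either direction). The median log2 difference of the members was -2.73, beside 0.03 over all genes, with a range from -5.77 to -0.21. For all 47 both arrays labelled BJELM lay below both BJEL arrays, as they did for 24.0% of all genes. TRIM14 and ADAR passed the adjusted p with a change under 2-fold. This comparison uses the same BJEL arrays as the first with the sign reversed, so the values of the comparisons are given side by side and their opposite directions are not separate evidence.

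Across both steps together, 8 of the 47 members (17%) differed between the arrays labelled BJELM and BJ, beside 8.79% of all genes. SAMHD1 rose, beside 4.09% of all genes that rose, and TRIM22, SAMD9L, IFITM1, UBA7, GBP3, PARP9 and SAMD9 fell, beside 4.70% that fell. The median log2 difference of the members was -0.38, beside 0.01 over all genes, with a range from -3.59 to 1.03. Both arrays labelled BJELM lay below both BJ arrays for 29 members (61.7%, beside 28.8% of all genes) and above them for 7 (14.9%, beside 31.7%). DDX60, DDX60L, DTX3L, GBP2 and ZC3HAV1 passed the adjusted p with changes under 2-fold, all of them lower.

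**Figure D2:**
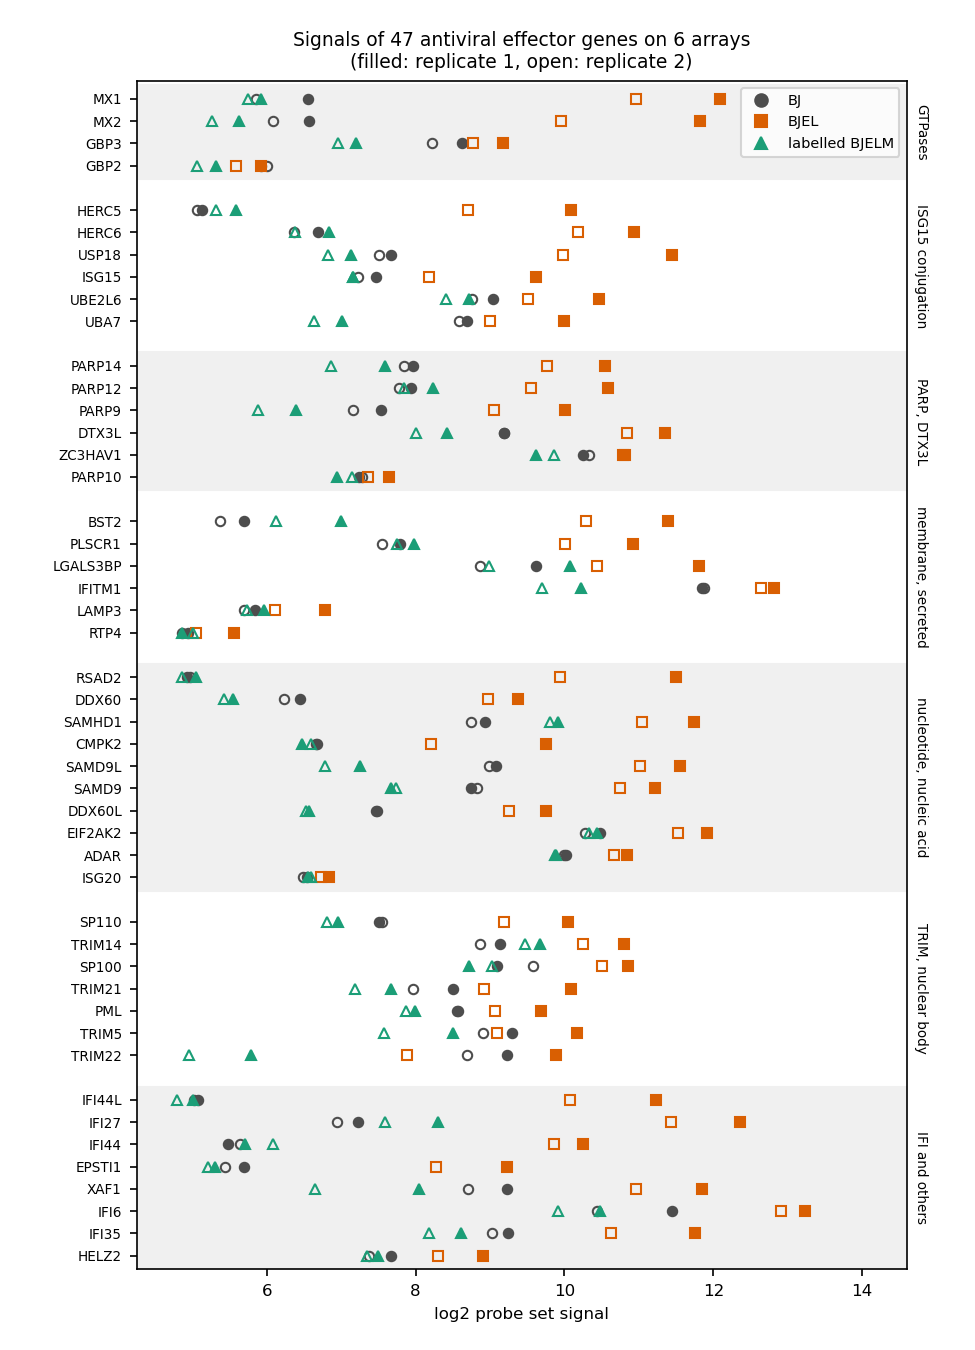
Log2 probe set signals (x axis) of the 47 measured members on each of the 6 arrays, grouped by role and ordered within a role by the difference of BJEL against BJ; grey circles are BJ, orange squares BJEL and green triangles the arrays labelled BJELM, filled for replicate 1 and open for replicate 2. The squares stand to the right of both other lines for most members, and TRIM22 spans 7.88 to 9.89 between the BJEL arrays.

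**Figure D3:**
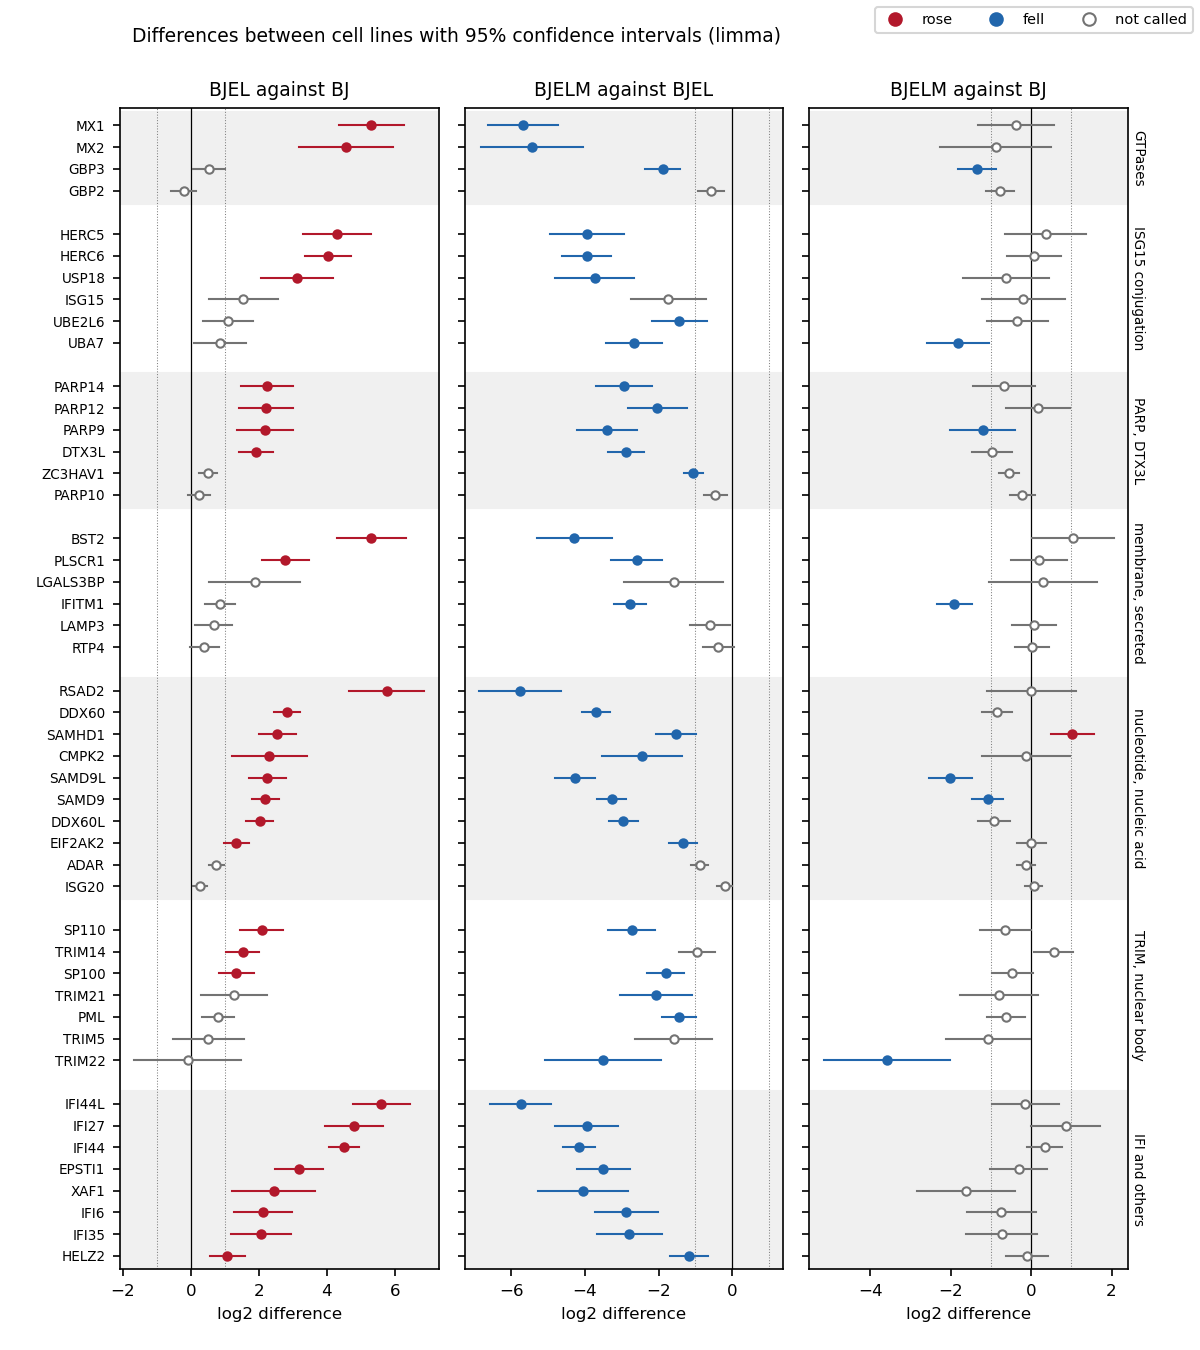
Log2 differences (x axis) of the 47 members with 95% confidence intervals from limma in the 3 comparisons, n = 2 arrays per line, with dotted lines at a 2-fold change. Red points rose, blue points fell and open grey points were not called; 30 members are red on the left, 37 are blue in the middle, and 1 is red and 7 are blue on the right, where the arrays are those labelled BJELM.

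Of the GTPases, MX1 and MX2 rose in BJEL against BJ and fell on the arrays labelled BJELM, whereas neither guanylate-binding protein was called in BJEL. MX1, a dynamin-like GTPase that traps the nucleocapsids of influenza and other viruses, had log2 signals of 6.56 and 5.86 in BJ, 12.09 and 10.96 in BJEL and 5.92 and 5.74 on the arrays labelled BJELM. The BJEL arrays were far above the other 4, which lay between 5.74 and 6.56. Its log2 difference was 5.31 ± 0.39 (adjusted p = 0.00102) in BJEL against BJ and -5.69 ± 0.39 (adjusted p = 0.00181) in BJELM against BJEL. MX2, which blocks the nuclear import of HIV, showed 6.57 and 6.08 in BJ, 11.82 and 9.95 in BJEL and 5.62 and 5.27 on the arrays labelled BJELM. The difference of MX2 was 4.56 ± 0.57 (adjusted p = 0.00418) in the first comparison and -5.44 ± 0.57 (adjusted p = 0.00509) in the second, and the BJEL arrays differed from each other more than for MX1. GBP3, of the guanylate-binding proteins that coat intracellular pathogens and their vacuoles, had 8.63 and 8.22 in BJ, 9.17 and 8.77 in BJEL and 7.20 and 6.96 on the arrays labelled BJELM. It fell on the arrays labelled BJELM, with -1.89 ± 0.19 (adjusted p = 0.00483) against BJEL and -1.34 ± 0.19 (adjusted p = 0.00385) against BJ, while BJEL against BJ gave 0.55 ± 0.19 (adjusted p = 0.112). GBP2 had signals of 5.92 and 6.01 in BJ, 5.93 and 5.59 in BJEL and 5.32 and 5.06 on the arrays labelled BJELM, and was the only GTPase with a BJEL mean below the BJ mean, at -0.21 ± 0.15 (adjusted p = 0.408). A probe set shared with GBP1 and GBP1P1 was not used for GBP3, and whether RNA of such close relatives reaches its probes was not tested.

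ISG15 is a ubiquitin-like protein that UBA7, UBE2L6 and HERC5, its activating, conjugating and ligating enzymes, attach to other proteins and that the protease USP18 removes; HERC6 is the relative of HERC5. Of these 6 members 3 rose in BJEL against BJ and 5 fell in BJELM against BJEL, and HERC5 and HERC6 had the largest differences. HERC5 had log2 signals of 5.13 and 5.06 in BJ, 10.09 and 8.70 in BJEL and 5.59 and 5.32 on the arrays labelled BJELM. Its difference was 4.30 ± 0.41 (adjusted p = 0.00196) in BJEL against BJ and -3.94 ± 0.41 (adjusted p = 0.00519) in BJELM against BJEL. HERC6 showed 6.68 and 6.37 in BJ, 10.94 and 10.18 in BJEL and 6.83 and 6.37 on the arrays labelled BJELM, and its arrays labelled BJELM overlapped those of BJ. The differences of HERC6 were 4.03 ± 0.28 (adjusted p = 0.000907) and -3.96 ± 0.28 (adjusted p = 0.0019) in the same order. USP18, which also restrains signalling at the interferon receptor, had 7.67 and 7.51 in BJ, 11.45 and 9.98 in BJEL and 7.13 and 6.82 on the arrays labelled BJELM. USP18 rose by 3.12 ± 0.44 (adjusted p = 0.00628) in BJEL, and BJELM against BJEL gave -3.74 ± 0.44 (adjusted p = 0.00686). ISG15 itself had 7.47 and 7.23 in BJ, 9.61 and 8.19 in BJEL and 7.16 and 7.16 on the arrays labelled BJELM. Both BJEL arrays were above the others and far from each other, and ISG15 was not called, with 1.55 ± 0.42 (adjusted p = 0.0544) in BJEL against BJ and -1.74 ± 0.42 (adjusted p = 0.0526) in BJELM against BJEL. Without BJEL replicate 2 the first difference was 2.26 (adjusted p = 0.0032), and the second was -1.02 (0.0358) without BJEL replicate 1 and -2.45 (0.00346) without replicate 2, all of them called. UBA7 had 8.70 and 8.58 in BJ, 10.00 and 9.0 in BJEL and 7.01 and 6.64 on the arrays labelled BJELM, so that the arrays labelled BJELM were lowest. It fell against BJEL with -2.67 ± 0.32 (adjusted p = 0.00694) and against BJ with -1.82 ± 0.32 (adjusted p = 0.0077), and BJEL against BJ gave 0.86 ± 0.32 (adjusted p = 0.126). UBE2L6 gave 1.09 ± 0.31 (adjusted p = 0.0599) in BJEL against BJ and -1.43 ± 0.31 (adjusted p = 0.0374) in BJELM against BJEL. Without BJEL replicate 2, UBA7 and UBE2L6 were called in BJEL, at 1.36 (adjusted p = 0.0166) and 1.57 (0.0133). The fall of UBE2L6 was not called without either BJ array or in a fit of BJELM and BJEL alone (-1.43, adjusted p = 0.0653), without BJEL replicate 1 (-0.96, 0.0759) or without BJELM replicate 1 (-1.59, 0.0687) or 2 (-1.28, 0.139).

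The poly(ADP-ribose) polymerase family members and DTX3L, a ubiquitin ligase that works as a pair with PARP9, rose together in BJEL against BJ for 4 of 6 members and fell for 5 of 6 in BJELM against BJEL. PARP14, a mono-ADP-ribosyltransferase, had log2 signals of 7.96 and 7.85 in BJ, 10.55 and 9.77 in BJEL and 7.59 and 6.87 on the arrays labelled BJELM. It rose by 2.26 ± 0.31 (adjusted p = 0.00602) in BJEL and fell with -2.93 ± 0.31 (adjusted p = 0.0055) in BJELM against BJEL. PARP12, a zinc finger member of the family, showed 7.94 and 7.78 in BJ, 10.59 and 9.55 in BJEL and 8.23 and 7.84 on the arrays labelled BJELM, and the arrays labelled BJELM overlapped those of BJ. PARP12 gave 2.21 ± 0.33 (adjusted p = 0.00773) in the first comparison and -2.03 ± 0.33 (adjusted p = 0.016) in the second, which was not called without BJELM replicate 2 (-1.84, adjusted p = 0.0701). PARP9 had 7.54 and 7.16 in BJ, 10.00 and 9.06 in BJEL and 6.40 and 5.88 on the arrays labelled BJELM, and DTX3L had 9.19 and 9.19 in BJ, 11.36 and 10.85 in BJEL and 8.43 and 8.0 on the arrays labelled BJELM. Both partners were highest in BJEL and lowest on the arrays labelled BJELM. For PARP9 the differences were 2.18 ± 0.34 (adjusted p = 0.00868) in BJEL against BJ, -3.39 ± 0.34 (adjusted p = 0.00443) in BJELM against BJEL and -1.21 ± 0.34 (adjusted p = 0.0413) in BJELM against BJ. DTX3L gave 1.91 ± 0.20 (adjusted p = 0.00272), -2.89 ± 0.20 (adjusted p = 0.0019) and -0.98 ± 0.20 (adjusted p = 0.0153) in the same comparisons, the last just under 2-fold. Against BJ, the fall of PARP9 was not called without BJ replicate 1 (-1.02, adjusted p = 0.192), BJ replicate 2 (-1.40, 0.0797) or BJELM replicate 2 (-0.95, 0.161), and DTX3L was called without BJELM replicate 1 (-1.19, 0.015). ZC3HAV1, the zinc finger antiviral protein that binds CpG-rich viral RNA, moved less, with 0.50 ± 0.11 (adjusted p = 0.0241) in BJEL against BJ and -1.05 ± 0.11 (adjusted p = 0.00468) in BJELM against BJEL, under 2-fold without BJELM replicate 1 (-0.93). PARP10 was not called in any comparison, and its difference in BJEL was 0.24 ± 0.13 (adjusted p = 0.269).

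Among membrane, vesicle and secreted proteins, BST2 and PLSCR1 rose in BJEL against BJ and 3 of the 6 fell in BJELM against BJEL. BST2, or tetherin, which holds budding virions on the cell surface, had log2 signals of 5.69 and 5.37 in BJ, 11.40 and 10.30 in BJEL and 7.0 and 6.13 on the arrays labelled BJELM. Its difference was 5.32 ± 0.42 (adjusted p = 0.00118) in BJEL against BJ, a 39.9-fold change, and -4.28 ± 0.42 (adjusted p = 0.00424) in BJELM against BJEL. The arrays labelled BJELM stayed above both BJ arrays, at 1.03 ± 0.42 (adjusted p = 0.128), which was not called. PLSCR1, a phospholipid scramblase that also acts in the nucleus, had 7.80 and 7.55 in BJ, 10.92 and 10.01 in BJEL and 7.98 and 7.75 on the arrays labelled BJELM. PLSCR1 gave 2.79 ± 0.29 (adjusted p = 0.00243) in the first comparison and -2.60 ± 0.29 (adjusted p = 0.00585) in the second. LGALS3BP, a secreted glycoprotein that binds galectins, showed 9.61 and 8.87 in BJ, 11.81 and 10.43 in BJEL and 10.08 and 8.98 on the arrays labelled BJELM. Replicate 1 was higher than replicate 2 in all 3 lines and LGALS3BP was not called, at 1.88 ± 0.55 (adjusted p = 0.068) in BJEL against BJ and -1.59 ± 0.55 (adjusted p = 0.136) in BJELM against BJEL. IFITM1, which hinders fusion of viral envelopes with cell membranes, had log2 signals of 11.85 and 11.88 in BJ, 12.82 and 12.64 in BJEL and 10.22 and 9.69 on the arrays labelled BJELM. It fell on the arrays labelled BJELM, with -2.77 ± 0.18 (adjusted p = 0.0016) against BJEL and -1.91 ± 0.18 (adjusted p = 0.000912) against BJ, and BJEL against BJ gave 0.86 ± 0.18 (adjusted p = 0.0225). LAMP3 and RTP4 were not called in any comparison and their highest signals were 6.79 for LAMP3 and 5.56 for RTP4, both on BJEL replicate 1. Without BJEL replicate 2, LGALS3BP (2.57, adjusted p = 0.044) and LAMP3 (1.02, 0.0203) were called in BJEL against BJ.

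Enzymes and sensors of nucleotides and nucleic acids were the largest role, with 8 of 10 members risen in BJEL against BJ and 8 fallen in BJELM against BJEL. RSAD2, or viperin, which makes a chain-terminating nucleotide, had log2 signals of 4.93 and 4.97 in BJ, 11.50 and 9.94 in BJEL and 5.04 and 4.86 on the arrays labelled BJELM. The BJ arrays and those labelled BJELM overlapped near the bottom of the signal range. RSAD2 rose by 5.77 ± 0.45 (adjusted p = 0.00119) in BJEL, a 54.5-fold change, and gave -5.77 ± 0.45 (adjusted p = 0.0024) in BJELM against BJEL. CMPK2, the mitochondrial nucleotide kinase encoded beside it, had 6.67 and 6.66 in BJ, 9.75 and 8.21 in BJEL and 6.47 and 6.60 on the arrays labelled BJELM. Its differences were 2.31 ± 0.45 (adjusted p = 0.0186) and -2.44 ± 0.45 (adjusted p = 0.0233), and the BJEL arrays were again far apart. DDX60, a helicase that promotes RNA sensing, showed 6.44 and 6.24 in BJ, 9.38 and 8.98 in BJEL and 5.55 and 5.43 on the arrays labelled BJELM, with little spread within a line. DDX60 gave 2.84 ± 0.15 (adjusted p = 0.000476) in BJEL against BJ, -3.69 ± 0.15 (adjusted p = 0.00057) in BJELM against BJEL and -0.85 ± 0.15 (adjusted p = 0.00899) in BJELM against BJ. For its relative DDX60L the same comparisons gave 2.03 ± 0.16 (adjusted p = 0.00128), -2.96 ± 0.16 (adjusted p = 0.00119) and -0.93 ± 0.16 (adjusted p = 0.00811). SAMHD1, which hydrolyses deoxynucleotides and so starves reverse transcription, was the only member that rose in BJELM against BJ, with 8.93 and 8.74 in BJ, 11.74 and 11.04 in BJEL and 9.91 and 9.81 on the arrays labelled BJELM. It rose by 2.55 ± 0.22 (adjusted p = 0.00155) in BJEL against BJ and by 1.03 ± 0.22 (adjusted p = 0.0175) in BJELM against BJ, and BJELM against BJEL was -1.53 ± 0.22 (adjusted p = 0.0123). SAMD9L and SAMD9, which restrict poxviruses, had 9.08 and 8.98 in BJ, 11.56 and 11.02 in BJEL and 7.25 and 6.79 on the arrays labelled BJELM for SAMD9L and 8.75 and 8.82 in BJ, 11.22 and 10.74 in BJEL and 7.67 and 7.74 on the arrays labelled BJELM for SAMD9. On the arrays labelled BJELM both genes ended below BJ, with -2.01 ± 0.22 (adjusted p = 0.00151) for SAMD9L and -1.08 ± 0.16 (adjusted p = 0.0043) for SAMD9. In BJEL against BJ they rose by 2.25 ± 0.22 (adjusted p = 0.00207) and 2.20 ± 0.16 (adjusted p = 0.001), and BJELM against BJEL gave -4.27 ± 0.22 (adjusted p = 0.00117) and -3.28 ± 0.16 (adjusted p = 0.00114). EIF2AK2, or PKR, the kinase that halts translation on double-stranded RNA, rose by 1.34 ± 0.15 (adjusted p = 0.00315), and ADAR, which edits double-stranded RNA, gave 0.75 ± 0.0939 (adjusted p = 0.00426), under 2-fold. ISG20, an exonuclease, was not called in any comparison and had 0.27 ± 0.0852 (adjusted p = 0.0858) in BJEL against BJ. CMPK2 was not called in BJEL against BJ without BJ replicate 1 (2.32, adjusted p = 0.0941) or 2 (2.31, 0.0765), or in BJELM against BJEL without BJELM replicate 1 (-2.38, 0.0707) or 2 (-2.51, 0.0805). SAMHD1 was not called in BJELM against BJEL without BJELM replicate 2 (-1.47, 0.0562), or in BJELM against BJ without any 1 of the 4 arrays of those lines (0.93 to 1.12, 0.0521 to 0.086).

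TRIM and nuclear body proteins had the smallest median log2 difference of the 7 roles in BJEL against BJ, 1.28, with 3 of 7 risen, and 5 of 7 fell in BJELM against BJEL. SP110 and SP100, chromatin-binding components of nuclear bodies, had log2 signals of 7.51 and 7.55 in BJ, 10.05 and 9.19 in BJEL and 6.96 and 6.81 on the arrays labelled BJELM for SP110 and 9.10 and 9.58 in BJ, 10.86 and 10.50 in BJEL and 8.72 and 9.02 on the arrays labelled BJELM for SP100. SP110 rose by 2.09 ± 0.26 (adjusted p = 0.00418) in BJEL and gave -2.73 ± 0.26 (adjusted p = 0.00419) in BJELM against BJEL. SP100 rose by 1.34 ± 0.21 (adjusted p = 0.00883) in BJEL and gave -1.81 ± 0.21 (adjusted p = 0.00647) in BJELM against BJEL. TRIM14, an adaptor in signalling from cytosolic sensors, had 9.13 and 8.87 in BJ, 10.80 and 10.26 in BJEL and 9.67 and 9.47 on the arrays labelled BJELM, and both arrays labelled BJELM remained above both BJ arrays. It rose by 1.53 ± 0.20 (adjusted p = 0.00483) in BJEL, while BJELM against BJEL gave -0.96 ± 0.20 (adjusted p = 0.0335) and BJELM against BJ 0.57 ± 0.20 (adjusted p = 0.0859), neither called. TRIM21, an antibody receptor in the cytosol, showed 8.50 and 7.96 in BJ, 10.09 and 8.92 in BJEL and 7.67 and 7.19 on the arrays labelled BJELM. TRIM21 gave 1.28 ± 0.40 (adjusted p = 0.0829) in BJEL against BJ and fell in BJELM against BJEL with -2.08 ± 0.40 (adjusted p = 0.0272). TRIM22, a ubiquitin ligase that restrains HIV transcription, had the widest gap between BJEL arrays of the members and the largest fall against BJ. Its signals were 9.23 and 8.69 in BJ, 9.89 and 7.88 in BJEL and 5.79 and 4.95 on the arrays labelled BJELM. TRIM22 shared its calls in the 3 comparisons with GBP3, IFITM1 and UBA7. Its BJEL arrays lay on either side of the BJ arrays, and BJEL against BJ gave -0.08 ± 0.65 (adjusted p = 0.955), whereas the arrays labelled BJELM were lowest by a wide margin, at -3.51 ± 0.65 (adjusted p = 0.0235) against BJEL and -3.59 ± 0.65 (adjusted p = 0.00869) against BJ, a 12.1-fold change. TRIM5, which binds retroviral capsids, was not called in any comparison, with 0.52 ± 0.43 (adjusted p = 0.479), -1.59 ± 0.43 (adjusted p = 0.0703) and -1.07 ± 0.43 (adjusted p = 0.124) in BJEL against BJ, BJELM against BJEL and BJELM against BJ. PML, the scaffold of nuclear bodies, fell in BJELM against BJEL with -1.45 ± 0.19 (adjusted p = 0.00959), and BJEL against BJ gave 0.81 ± 0.19 (adjusted p = 0.037). Leaving out BJEL replicate 1 removed the call of SP100 in BJEL against BJ (1.16, adjusted p = 0.0593) and of TRIM21 in BJELM against BJEL (-1.49, 0.0753), and TRIM21 was also not called there without BJELM replicate 1 (-2.31, 0.0507) or 2 (-1.84, 0.11). TRIM22 was not called in BJELM against BJEL without BJELM replicate 2 (-3.09, 0.0966), or in BJELM against BJ without BJ replicate 1 (-3.32, 0.0545), and without BJEL replicate 2 TRIM21 (1.86, 0.0244) and PML (1.12, 0.00964) were called in BJEL against BJ and TRIM14 (-1.24, 0.0279) in BJELM against BJEL.

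All 8 IFI proteins and other induced genes rose in BJEL against BJ and fell in BJELM against BJEL, and none was called in BJELM against BJ. IFI44L, which feeds back on interferon signalling, had log2 signals of 5.07 and 5.03 in BJ, 11.22 and 10.07 in BJEL and 5.01 and 4.80 on the arrays labelled BJELM. Outside BJEL its signals were near the bottom of the range, with the arrays labelled BJELM just below those of BJ. Its difference was 5.60 ± 0.34 (adjusted p = 0.000664) in BJEL against BJ, a 48.5-fold change, and -5.74 ± 0.34 (adjusted p = 0.0012) in BJELM against BJEL. IFI44, its neighbour, had 5.47 and 5.64 in BJ, 10.25 and 9.86 in BJEL and 5.71 and 6.09 on the arrays labelled BJELM, with BJEL arrays close together. IFI44 gave 4.50 ± 0.18 (adjusted p = 0.000205) and -4.16 ± 0.18 (adjusted p = 0.000656) in the same comparisons. IFI27, a mitochondrial and nuclear membrane protein, showed 7.22 and 6.94 in BJ, 12.35 and 11.43 in BJEL and 8.30 and 7.59 on the arrays labelled BJELM. Its differences were 4.81 ± 0.35 (adjusted p = 0.001) in BJEL against BJ and -3.95 ± 0.35 (adjusted p = 0.00355) in BJELM against BJEL, and the arrays labelled BJELM stayed above BJ by 0.86 ± 0.35 (adjusted p = 0.13), which was not called. EPSTI1 had 5.70 and 5.44 in BJ, 9.23 and 8.28 in BJEL and 5.31 and 5.21 on the arrays labelled BJELM, and the BJEL arrays stood far above the other 4. EPSTI1 rose by 3.18 ± 0.29 (adjusted p = 0.00177) in BJEL, and BJELM against BJEL gave -3.50 ± 0.29 (adjusted p = 0.003). IFI6, related to IFI27, rose by 2.13 ± 0.35 (adjusted p = 0.0111) and reached 13.24 on a BJEL array. IFI35, XAF1 and HELZ2 rose by 2.06 ± 0.36 (adjusted p = 0.0135), 2.44 ± 0.50 (adjusted p = 0.0226) and 1.08 ± 0.21 (adjusted p = 0.0192) in BJEL. XAF1, a pro-apoptotic antagonist of XIAP, gave -4.06 ± 0.50 (adjusted p = 0.00753) in BJELM against BJEL and -1.62 ± 0.50 (adjusted p = 0.0588) in BJELM against BJ, which was called without BJELM replicate 1 (-2.32, adjusted p = 0.0126). In BJEL against BJ, XAF1 was not called without BJ replicate 1 (2.70, 0.077), BJ replicate 2 (2.18, 0.103) or BJEL replicate 1 (2.00, 0.121), HELZ2 without the same arrays (1.22, 0.93 and 0.77, 0.0589 to 0.0922), IFI35 without BJ replicate 1 (2.16, 0.0636) or 2 (1.95, 0.0659) and IFI6 without BJEL replicate 1 (1.97, 0.0736). In BJELM against BJEL, IFI6 (-2.72, 0.0552), XAF1 (-3.62, 0.0506) and HELZ2 (-0.88, 0.067) were not called without BJEL replicate 1, nor was HELZ2 without BJELM replicate 1 (-1.25, 0.0524) or 2 (-1.11, 0.0893).

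The replicates within a line were not equally close for these genes. In BJEL, replicate 1 was above replicate 2 for 46 of the 47 members, with a median gap of 0.78 on the log2 scale and up to 2.01 for TRIM22. The exception was ZC3HAV1, at -0.03. Over all genes of BJEL the share was 51.7% and the median gap 0.01. Replicate 1 was also the higher of the pair for 38 members in BJELM, with a median gap of 0.23, and for 37 in BJ, with a median gap of 0.16, beside 57.9% and 58.2% of all genes. The median signal of the members was 7.80 and 7.55 on the BJ arrays, 10.59 and 9.86 on the BJEL arrays and 7.20 and 6.87 on the arrays labelled BJELM. The members' median difference in BJEL against BJ was 1.66 without BJEL replicate 1 and 2.44 without replicate 2, and in BJELM against BJEL it was -2.22 and -3.14.

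**Figure D4:**
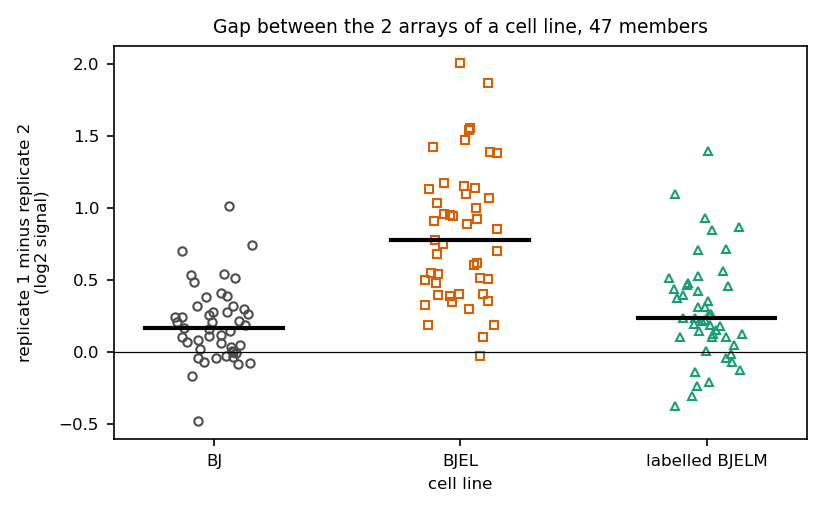
Replicate 1 minus replicate 2 on the log2 scale (y axis) for the 47 members in each cell line; each point is a gene and each bar the median. The gap is above 0 for 46 members in BJEL, and BJ, BJEL and the line labelled BJELM have medians of 0.16, 0.78 and 0.23.

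Several members lie side by side in the genome. In the RefSeq gene order of GRCh38.p14, 7 pairs of measured members had no protein-coding gene between them, and in all 7 both genes rose in BJEL against BJ, as did both genes in 0.3% of 14995 such pairs among all genes measured. Since most members rose in that comparison, nothing is read from their adjacency. These were IFI44L and IFI44 on chromosome 1, CMPK2 and RSAD2 on chromosome 2, PARP9 and DTX3L on chromosome 3, HERC6 and HERC5 as well as DDX60 and DDX60L on chromosome 4, SAMD9 and SAMD9L on chromosome 7, and MX2 and MX1 on chromosome 21. The partners could differ in size, at 2.31 for CMPK2 and 5.77 for RSAD2, or be nearly equal, at 2.20 for SAMD9 and 2.25 for SAMD9L. In the same list GBP3 and GBP2 on chromosome 1, with 1 gene between them, and TRIM5 and TRIM22 on chromosome 11, with 3 between them, were not called in BJEL against BJ, whereas SP110 and SP100 on chromosome 2, with 2 between them, and DTX3L and PARP14, with 1, all rose.

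Genes of the pathway that lead to the effectors were measured beside them from lists written for this purpose. Of 7 interferon ligands measured, among them IFNB1, none was called in any comparison, and their signals stayed between 4.17 and 6.15 on all 6 arrays. Limma gave 0 ligands at an unadjusted p under 0.05 in each comparison, beside 30.6%, 25.4% and 37.3% of all genes in BJEL against BJ, BJELM against BJEL and BJELM against BJ. Apart from IFNL1, the ligands lay near the bottom of the signal range, where a change can be missed, and nothing is read from their counts. Interferon at the protein level was not measured. None of 6 receptor subunits was called, with 3, 2 and 4 of them at an unadjusted p under 0.05 in the same 3 comparisons, counts of so few genes from which nothing is read beside those shares. Of 10 signal transduction genes 0 were called in BJEL against BJ, with 8 at an unadjusted p under 0.05, beside the 30.6% of all genes. In that comparison IRF7 (0.94, adjusted p = 0.022), JAK1 (-0.47, 0.0357) and SOCS3 (-0.50, 0.0284) passed the adjusted p by limma with changes under 2-fold. IRF9 gave 1.03 ± 0.34 there (adjusted p = 0.0921). JAK2 passed it under 2-fold in BJELM against BJEL (-0.87, 0.00758), as did 5 genes in BJELM against BJ, all of them lower. IRF9, a DNA-binding component of the factor that binds the ISRE, had 9.15 and 8.49 in BJ, 10.12 and 9.59 in BJEL and 7.80 and 7.02 on the arrays labelled BJELM. IRF9 fell in BJELM, with -2.44 ± 0.34 against BJEL (adjusted p = 0.0105) and -1.41 ± 0.34 against BJ (adjusted p = 0.0245), and IRF2 and IRF7, both regulatory factors of the family, fell against BJEL with -1.45 and -1.01.

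Of 10 sensors of foreign nucleic acids and their adaptors measured, 5 rose and 1 fell in BJEL against BJ, 5 fell in BJELM against BJEL and 1 fell in BJELM against BJ. MAVS, ZBP1, IFI16 and AIM2 were not called in any comparison. In BJELM against BJEL, MAVS (-0.58, adjusted p = 0.0233), IFI16 (-0.98, 0.0212) and CGAS (-0.74, 0.0499) passed the adjusted p with falls under 2-fold. So did MAVS in BJELM against BJ (-0.67, 0.00554), where CGAS passed it with a rise under 2-fold (0.63, 0.0413). RIGI, IFIH1, DHX58, TLR3 and CGAS rose in BJEL against BJ, by 3.44, 3.69, 1.84, 3.60 and 1.37 on the log2 scale, and the first 4 of these fell in BJELM against BJEL. TLR3, an endosomal receptor for double-stranded RNA, had 6.12 and 6.05 in BJ, 10.11 and 9.26 in BJEL and 7.03 and 6.32 on the arrays labelled BJELM. STING1, the adaptor below the DNA sensor CGAS, went down at each step, with 10.59 and 10.08 in BJ, 9.29 and 8.67 in BJEL and 7.99 and 7.50 on the arrays labelled BJELM. STING1 fell with -1.35 ± 0.28 in BJEL against BJ (adjusted p = 0.0231) and -2.59 ± 0.28 in BJELM against BJ (adjusted p = 0.00145). The OAS and IFIT families, effectors that bind viral RNA, all rose in BJEL against BJ (8 of 8, median 3.16) and fell in BJELM against BJEL (8 of 8, median -4.28), and IFIT1, IFIT2 and IFIT3 fell below BJ on the arrays labelled BJELM.

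**Figure D5:**
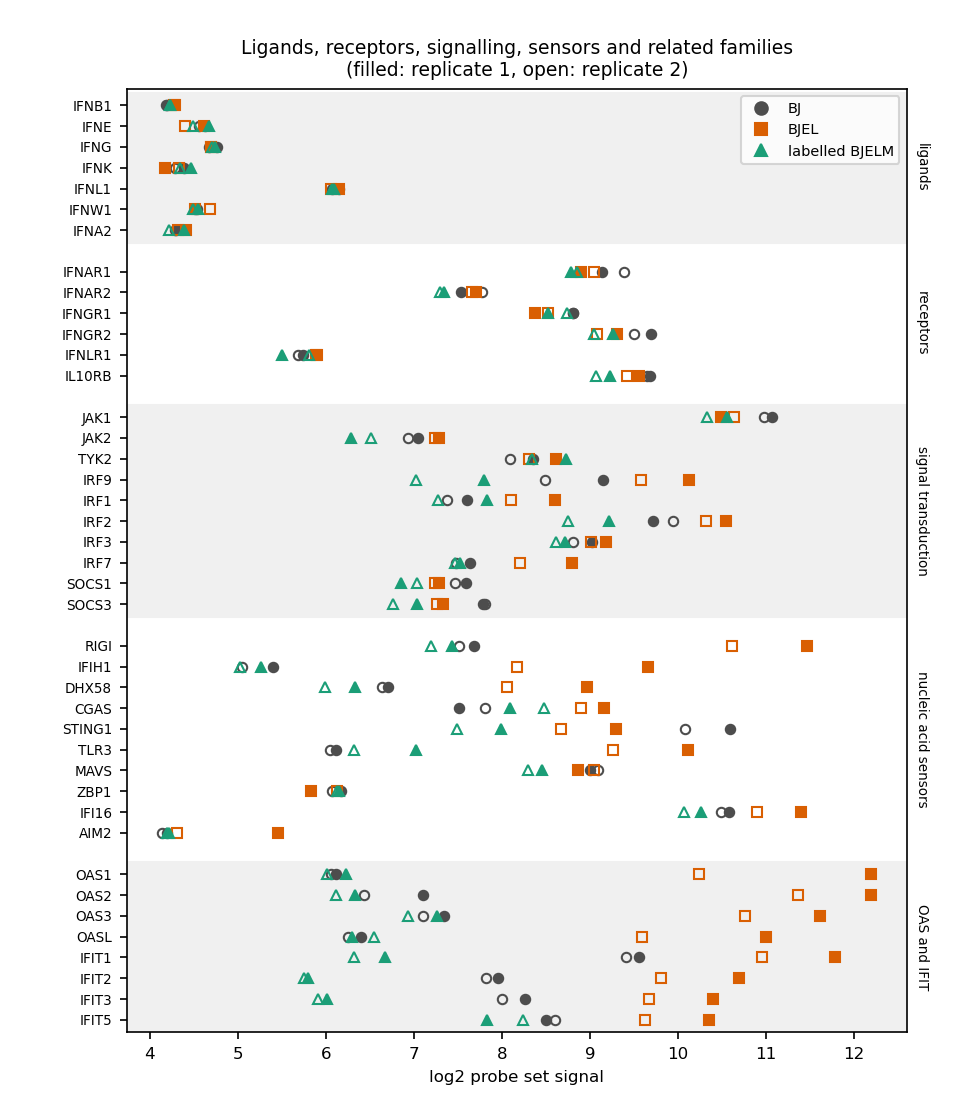
Log2 probe set signals (x axis) of interferon ligands, receptors, signal transduction genes, nucleic acid sensors and the OAS and IFIT families on the 6 arrays, with the same symbols as the plot of the members. The ligands lie between 4.17 and 6.15 on every array, while the 8 OAS and IFIT genes are highest in BJEL.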

How the data were processed

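Total RNA of BJ, BJEL and BJELM cells was hybridised to Affymetrix Gene 1.0 ST arrays, 2 biological replicates per line. The authors processed the 6 scans jointly in Affymetrix Expression Console 1.3.1 with the default RMA method, which corrects background, brings the arrays to 1 distribution and summarises each probe set, and the deposited values are log2 signals. Such scaling assumes that most genes do not differ and compresses changes of dim probe sets. No detection calls and no filter on low signals were used, and arrays have no count depth, so precision depends on how many arrays a line has.

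Of 33297 probe sets, 19460 had 1 gene symbol, 1754 several, and 12083 were not listed in the annotation. A gene was its single-symbol probe set with the highest mean, which gave 18417 genes, 18389 of them matched to RefSeq through their Entrez number. Which build the array annotation follows was not given in the sources used here. Promoter sequences came from RefSeq, GRCh38.p14, with 1 or more windows for 39 members.

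Differences came from limma 3.58.1 in R 4.3.3, with 6 arrays in 1 fit, a mean per line and two-sided moderated tests on 3 residual and 3.13 prior degrees of freedom. P-values were Benjamini-Hochberg adjusted over 18417 genes, and a gene was called at an adjusted p under 0.05 and at least 2-fold. Values with ± are log2 differences with their SE, n = 2 arrays per line. The script was tested on simulated data of the same size. The members, their 7 roles and the 9 gene lists beside them were chosen with earlier results of these data known. Values on every array are given for up to 4 members per role with the largest difference of BJEL against BJ and for every member called in BJELM against BJ; members whose call was lost with 1 array left out, called list genes, and TERT and MYC are also named. Members whose call was gained with 1 array left out and members at the ends of a range were named after their values were seen. So were members that passed the adjusted p under 2-fold, and VIM, PTPRC, PECAM1, KRT18, TYROBP, IFNB1, IFNL1, JAK1, JAK2, SOCS3, MAVS, ZBP1, IFI16 and AIM2. Alternatives were each array left out, the 2 lines alone, the replicate block, other normalizations, an intensity trend with a robust prior, filters on dim genes, other probe set rules, other thresholds and the methods' t-test in its plain form.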

Additional observations from a re-analysis of the deposited data

How the results depend on the processing

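The methods used a modified t-test for unequal variances, which was run here only in its plain form. With 2 arrays per line and the 2-fold minimum, the plain test called 7, 14 and 5 members at an unadjusted p under 0.05. These counts are for BJEL against BJ, BJELM against BJEL and BJELM against BJ. After Benjamini-Hochberg adjustment they were 0, 0 and 0, against 30, 37 and 8 with limma. The plain test estimates the spread of each gene from its own 4 arrays. Without the fold minimum 13 members were called in BJELM against BJ. Leaving out 1 array at a time gave 26 to 37, 30 to 39 and 5 to 9 members, and medians of 1.66 to 2.44, -3.14 to -2.22 and -0.48 to -0.24, where the 5 members were those without BJ replicate 1. TRIM22 in BJEL against BJ ranged from -1.09 to 0.92, with 0.19 without BJ replicate 1 and 0.92 without BJEL replicate 2, and TRIM5 from -0.014 to 1.06, with -0.014 without BJEL replicate 1. With 1 array left out, the lone array of a line is assumed to vary like the others. The cause of these changes was not tested. Same-numbered arrays deviated together (r = 0.45, 0.48 and 0.55 across genes), but 2 numbers do not establish a pairing. The fit with the replicate block called 34, 40 and 11 members, and every call of the fit without it remained. It added ISG15, UBE2L6, LGALS3BP and TRIM21 in BJEL against BJ, ISG15, LGALS3BP and TRIM5 in BJELM against BJEL, and BST2, TRIM5 and XAF1 in BJELM against BJ. Over the 37 members at or above the median level the median in BJELM against BJ was -0.61, against -0.38 over all 47, a different set of members. No call of signal over background was used, so for the dimmest members, such as RSAD2, RTP4 and IFI44L in BJ, folds may be compressed.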
